A study of Caenorhabditis elegans with 2 samples.

Results

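The genes described are 9 genes of Caenorhabditis elegans that encode the Retinoblastoma homologue, the E2F and DP transcription factors and the MuvB proteins, chosen by name out of 19973 protein-coding genes on the nuclear chromosomes. They are lin-35, efl-1, efl-2, dpl-1, lin-9, lin-37, lin-52, lin-53 and lin-54, and all 9 were found in the annotation. The measurement was chromatin immunoprecipitation and sequencing (ChIP-seq) of ZTF-16, a C2H2 zinc-finger protein, in whole late embryos of mixed sex taken 5 hours after egg bleaching. Both samples were biological replicates of 1 group, strain OP558, which carries unc-119(tm4063) on chromosome III and the integrated transgene wgIs558. The transgene expresses ZTF-16 with a GFP-FLAG tag at its carboxyl terminus, from a copy number and in cells that the labels do not state, and the antibody was against GFP. The series has no second condition, so the data allow no comparison of conditions. No peak list from animals without the tagged protein was analysed here, so a listed peak cannot be ascribed to tagged ZTF-16 alone.

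Retinoblastoma-family pocket proteins bind E2F-DP heterodimers and restrain the genes that those dimers activate at entry into S phase. In C. elegans the pocket protein LIN-35 joins EFL-1, DPL-1 and the MuvB proteins LIN-9, LIN-37, LIN-52, LIN-53 and LIN-54 in a complex called DREAM (DRM in worms), which represses cell cycle genes and, in somatic cells, genes of the germ line. Many of these genes were found as class B synthetic multivulva genes, whose loss disturbs vulval development when a class A gene is also lost. Worm messenger RNAs are often trans-spliced to a leader sequence, so an annotated 5' end can lie downstream of the place where transcription starts.

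Each peak has a summit, its point of highest enrichment, and a signal value, which is the output of the authors' caller and can be compared only within 1 list. The values are given in 4 lists on assembly ce11: the relaxed lists of replicate 1 (21235 peaks, signals 14.5 to 438), replicate 2 (18242 peaks, 14.98 to 396) and the pool of both (14968 peaks, 28.4 to 835), and the list of 822 peaks thresholded by the irreproducible discovery rate (IDR), which compares the ranks of peaks between replicates. The last of these holds exactly the pooled peaks of rank 822 or better. The pooled relaxed list is labelled as peaks and background for input to the IDR step, and the replicate lists may also include background. The lists hold no read counts, so the sequencing depth behind each value is unknown. They list only peaks above a minimum, so a gene without a peak is one where none was listed. The promoter window of a gene covered 1000 bp before its annotated 5' end and 200 bp after it.

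The sequences of 3 of the promoter summits are shown first, because they share a stretch of letters. They are the strongest promoter summits of lin-54 and efl-1 and the weaker one of lin-9, the sites at lin-54 (chrIV:13240652-13240752, plus strand), efl-1 (chrV:16965845-16965945, minus strand) and lin-9 (chrIII:8904250-8904350, minus strand), each 101 bases centred on a pooled summit in intergenic sequence, read 5' to 3' on the strand of the gene from the RefSeq genome of WBcel235, the same assembly as ce11. Capitals mark GCGCTCCAC or its reverse complement GTGGAGCGC, and in efl-1 also TTCCCGC, the core of the E2F site.
lin-54: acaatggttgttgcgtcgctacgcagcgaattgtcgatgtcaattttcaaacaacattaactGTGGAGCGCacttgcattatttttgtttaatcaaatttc
efl-1: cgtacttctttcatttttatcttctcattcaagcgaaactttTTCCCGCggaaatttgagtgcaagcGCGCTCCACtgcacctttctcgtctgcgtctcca
lin-9: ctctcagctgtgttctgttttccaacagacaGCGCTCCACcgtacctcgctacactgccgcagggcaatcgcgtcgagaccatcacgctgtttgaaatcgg

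The 9 genes differed in the level of their promoter peaks, and not all of them had one. In the pooled list, lin-35 had a promoter peak of rank 31 and lin-53 one of rank 424, and these 2 genes were the only members with an IDR-thresholded peak. The strongest promoter peak of lin-54 ranked 920, that of efl-1 1530, that of lin-9 1585 and that of lin-52 1651, all below the IDR threshold. No pooled peak was listed in the promoter window or body of efl-2, dpl-1 or lin-37. Thus 2 of 9 members had an IDR-thresholded summit in the promoter window, beside 3.29% of all protein-coding genes, and 6 of 9 had a pooled summit there, beside 23.5%. In the promoter window and gene body together the counts were again 2 and 6, beside 4.32% and 39.9% of all genes. In the relaxed lists of single replicates a promoter summit was listed for 6 members in replicate 1, beside 29.4% of all genes, and for 7 in replicate 2, beside 26.2%, and with the gene body for 7 and 8 members, beside 50.2% and 46.3%. The 6 members with a pooled promoter summit also had summits of both replicates within 200 bp of each other in the window, beside 12.8% of all genes, as they did when only summits above the median signal of each replicate list were used, beside 8.31%. With 1 group and 9 genes chosen by name, with earlier results of these data known, these counts were set beside the background without a test.

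**Figure D1:**
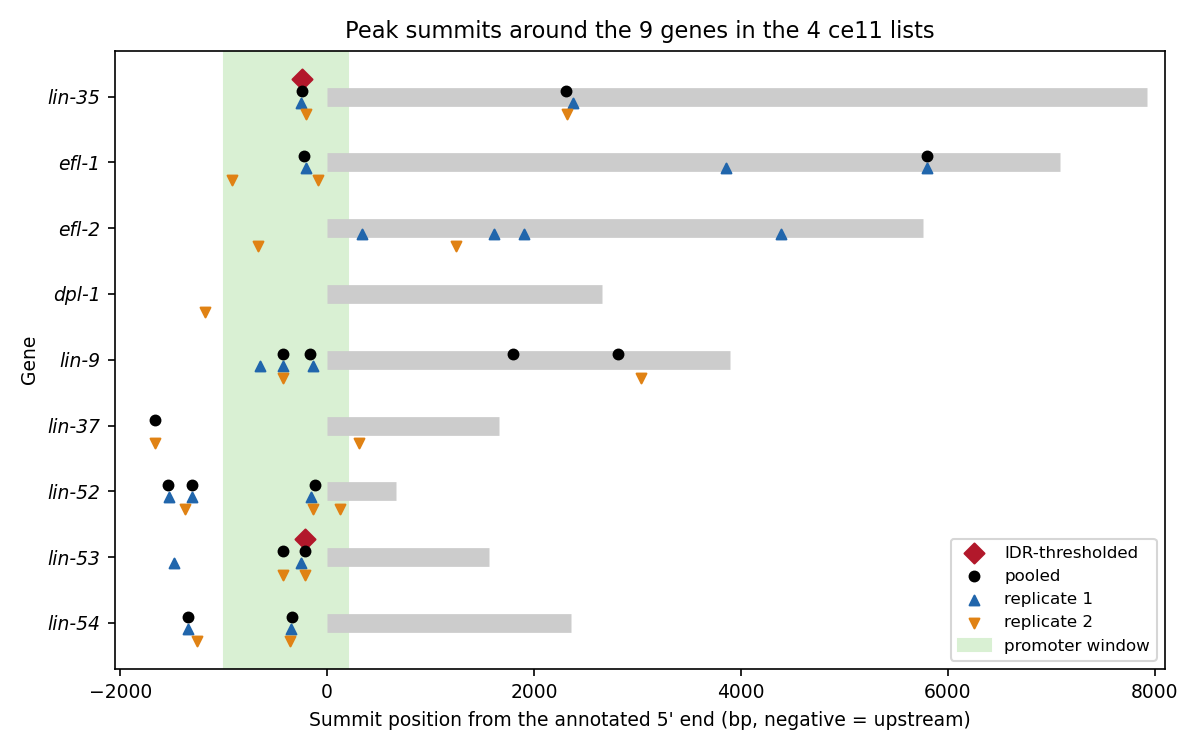
Positions of peak summits around the 9 genes, as distance in bp from the annotated 5' end, with the gene body as a grey bar and the promoter window shaded. Diamonds are IDR-thresholded, circles pooled, upward triangles replicate 1 and downward triangles replicate 2 summits; only lin-35 and lin-53 have a diamond, and dpl-1 has no summit in its window or body.

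The gene lin-35 encodes the sole pocket protein of the worm and lies on chromosome I from 5807709 to 5815637 on the plus strand. Its promoter peak had its summit at 5807465, 244 bp upstream of the 5' end and in intergenic sequence, with a signal of 290 in the pooled list. In replicate 1 the peak had a signal of 133 and rank 38, with the summit 248 bp upstream. In replicate 2 it had a signal of 159 and rank 23, with the summit 209 bp upstream. It was thus among the strongest peaks of each replicate by itself, and the replicate summits lay 39 bp apart. When protein-coding genes were ordered by their strongest pooled promoter summit, lin-35 stood in place 23 of the 4688 genes that had one. The pooled peak was 145 bp wide (5807438 to 5807582), whereas 752 of the 822 IDR-thresholded peaks were 440 bp wide, and in each replicate list the peak had the common width of that list, 444 and 436 bp.

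The genes closest to lin-35 in that order, the 3 above and the 3 below that did not use its summit, were snx-13 (signal 296), C41C4.9 and chst-1 (both 294, from 1 shared summit), Y17G9B.5 and rpl-20 (both 277, from 1 shared summit) and cmtr-1 (272). The summits of C41C4.9 and chst-1 and of cmtr-1 lay within 200 bp of a snoRNA gene. No tRNA, snoRNA, snRNA, rRNA or miRNA gene lay within 200 bp of any pooled summit in the promoter window or body of the 9 genes. The lin-35 peak was therefore one of the strong peaks that lay away from small non-coding RNA genes.

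Inside the body of lin-35 a further pooled summit, 2311 bp downstream of the 5' end, had a signal of 34.1 and rank 8834. It ranked 19382 in replicate 1 (signal 15.1) and 9027 in replicate 2 (signal 19.2), near the lower end of the first list and near the middle of the second. The nearest 5' end to this summit was that of C32F10.4, a gene on the opposite strand within lin-35, 18 bp away.

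The E2F and DP genes showed a weaker peak at 1 gene and no pooled peak at the others. The gene efl-1, which encodes the E2F partner of DPL-1 in DREAM (chromosome V, 16958590 to 16965675, minus strand), had a pooled summit at 16965895, 220 bp upstream of the 5' end, with a signal of 59.7. In replicate 1 that summit was 204 bp upstream and had a signal of 40.5 and rank 920. In replicate 2 the nearest summit was 88 bp upstream, with a signal of 19.3 and rank 8872. The replicates thus differed widely here, with the site among the first 4.33% of one list and near the middle of the other (48.6%), and the summits lay 116 bp apart. Replicate 2 had another summit 918 bp upstream (signal 17.7, rank 11686) with none in replicate 1 near it. In the gene body a pooled summit 5798 bp downstream ranked 11284 (signal 31.4), was matched in replicate 1 at rank 19625 and had no summit of replicate 2 within 200 bp.

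The gene efl-2, the other E2F-like gene of the list (chromosome II, 13406140 to 13411895, plus strand), had no pooled peak in its 6.756 kb of promoter window and body. Replicate 1 listed 4 summits in the body, with ranks from 8197 to 14824, and replicate 2 listed 1 in the body (rank 13562) and 1 at 664 bp upstream (rank 15566). None of the replicate 1 summits lay within 200 bp of a replicate 2 summit. The gene dpl-1, which encodes the DP subunit (chromosome II, 9169910 to 9172565, plus strand), had no summit in its window or body in any of the 4 lists, over 3.656 kb. Its closest listed peak was a replicate 2 summit 1184 bp upstream (signal 16.8, rank 13526), and the nearest pooled summit was 8690 bp upstream. Of the partners efl-1 and dpl-1, whose products act as a dimer, only efl-1 had a pooled promoter summit. That summit was below the IDR threshold, and 23.5% of all protein-coding genes had a pooled promoter summit.

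Among the MuvB genes, lin-53 had the strongest peak. It encodes a histone-binding protein of the RbAp46/48 family that is also a subunit of other chromatin complexes, and it lies on chromosome I from 9618196 to 9619760 on the minus strand. The pooled summit at 9619971, 211 bp upstream, had a signal of 106. The peak had a signal of 54.5 and rank 461 in replicate 1 (252 bp upstream) and 53.0 and rank 451 in replicate 2 (215 bp upstream), so the replicates ranked it nearly alike. A second pooled summit 425 bp upstream had a signal of 34.3 and rank 8654, and had its own counterpart in replicate 2 at the same base (rank 12869) but not in replicate 1. This weaker summit lay 42 bp upstream of nra-2, a gene on the opposite strand, whose 5' end was the nearest to it. The genes just above lin-53 in the order of promoter signals were F13C5.2, otub-2 and F53B3.5, and those just below were algn-6, ubh-4 and C37A2.8, with signals from 105.5 to 106.3. The paralogue rba-1 lies next to lin-53 on the same strand, and the lin-53 summit was outside its promoter window.

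The gene lin-54 encodes the subunit of MuvB that binds DNA, and lies on chromosome IV from 13241044 to 13243401 on the plus strand. Its pooled summit at 13240702, 342 bp upstream, had a signal of 73.8, beside 77.4 for the last IDR-thresholded peak. In replicate 2 it had a signal of 46.6 and rank 602 (357 bp upstream), and in replicate 1 a signal of 26.8 and rank 3259 (349 bp upstream). The position agreed within 8 bp between replicates while the ranks were far apart.

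The gene lin-9 encodes a MuvB protein related to fly Aly and lies on chromosome III from 8900237 to 8904131 on the minus strand. It had 2 pooled summits in the promoter window, 429 bp upstream (signal 58.9, rank 1585) and 169 bp upstream (signal 53.8, rank 2020). The summit further upstream was found 427 bp upstream in both replicates, at the same base, with a signal of 32.3 and rank 1729 in replicate 1 and 28.9 and rank 2090 in replicate 2. The nearer one was listed in replicate 1 (133 bp upstream, signal 29.8, rank 2255) and had no summit of replicate 2 within 200 bp. Pooled summits in the body at 1797 and 2808 bp downstream ranked 12942 and 9888 and had no summit of either replicate within 200 bp. 

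The gene lin-52 encodes a small MuvB protein and lies on chromosome III from 9824083 to 9824750 on the minus strand. Its pooled summit, 122 bp upstream, had a signal of 57.9 and rank 1651. It was found in replicate 1 at 155 bp upstream (signal 26.7, rank 3296) and in replicate 2 at 133 bp upstream (signal 29.2, rank 2014), both in the last exon sequence of ZK632.9, the next gene upstream on the same strand, which ends 126 bp before lin-52. Replicate 2 had another summit 128 bp downstream of the 5' end, in an intron, with a signal of 30.2 and rank 1797. Farther upstream, a pooled summit 1304 bp from the 5' end (signal 53.0, rank 2111) was closest to the 5' end of ZK632.9.

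The gene lin-37, which encodes a further MuvB subunit (chromosome III, 7070890 to 7072552, minus strand), had only a replicate 2 summit in the body, 307 bp downstream (signal 16.7, rank 13813). The next gene upstream on the same strand, ZK418.5, ends 60 bp before it. The upstream part of the lin-37 promoter window therefore lay mostly within ZK418.5 and did not reach the 5' end of that gene. The nearest pooled summit was 1664 bp upstream of lin-37 (signal 30.5, rank 12260), closest to the 5' end of ZK418.5. In replicate 2 that summit ranked 12430, and replicate 1 had none within 2000 bp upstream of lin-37.

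**Figure D2:**
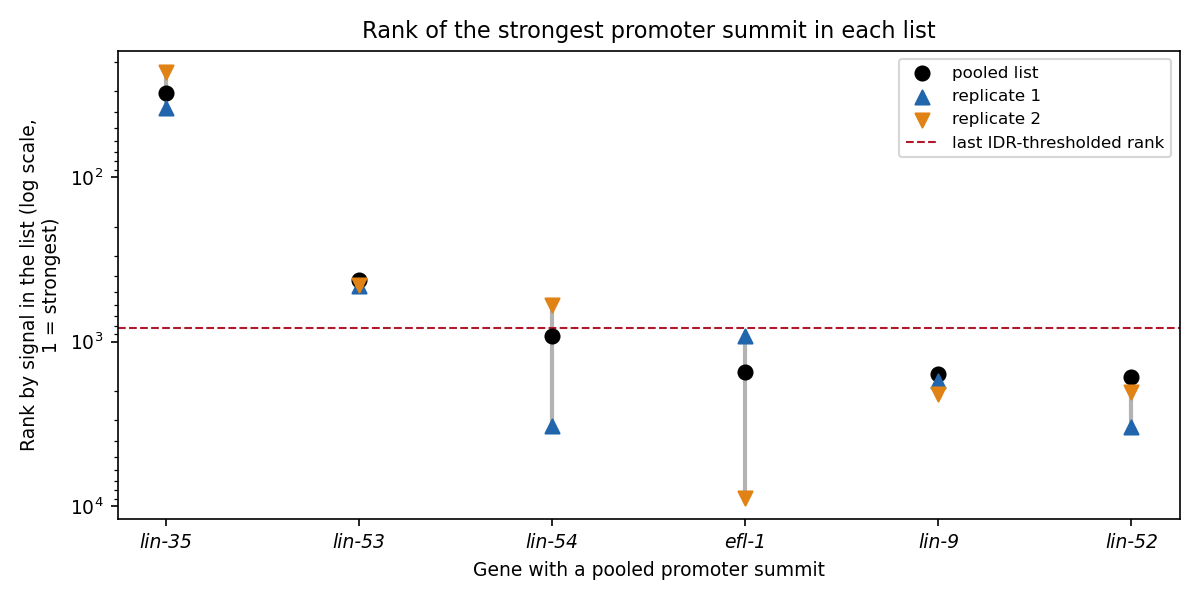
Rank by signal, on a log scale with the strongest peak as 1, of the strongest pooled promoter summit of the 6 members that had one, in the pooled list (circles), replicate 1 (upward triangles) and replicate 2 (downward triangles), with the last IDR-thresholded rank of 822 as a dashed line. The 3 ranks of lin-35 (23 to 38) and of lin-53 (424 to 461) are all above the line. Those of lin-54 lie on both sides of it, with only replicate 2 (602) above. Those of efl-1, lin-9 and lin-52 are all below it, with those of efl-1 spread widely (920 to 8872).

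The order of the levels held between replicates only in part. In both replicates lin-35 came first and lin-53 ranked in the first 500 peaks. Of the other members lin-54 led in replicate 2 and efl-1 led in replicate 1, so lin-54, efl-1, lin-9 and lin-52, with pooled signals from 57.9 to 73.8, could not be put in an order that both replicates shared. Over the 6 members the median of the strongest pooled promoter signal was 66.8, and over all 4688 genes with such a summit it was 40.7.

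The strongest promoter summits of lin-35, lin-53 and lin-54 each lay between a pair of genes read in opposite directions, so they cannot be assigned to the member alone. The lin-35 summit was 174 bp upstream of vps-51, which encodes a subunit of a vesicle-tethering complex, and 244 bp upstream of lin-35, in a gap of 417 bp. The lin-53 summit was 211 bp upstream of lin-53 and 256 bp upstream of nra-2, in a gap of 466 bp. The lin-54 summit was 51 bp upstream of rpl-12, which encodes a protein of the large ribosomal subunit, and 342 bp upstream of lin-54, in a gap of 392 bp. By the nearest 5' end the summit at lin-35 would go to vps-51 and that at lin-54 to rpl-12, while that at lin-53 would stay with lin-53. The efl-1 summit also fell in the window of fbxa-90, 919 bp upstream of it, with efl-1 the nearer, and the lin-9 and lin-52 summits were in no other window. 

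Promoter summits between such pairs were common in the whole list. Divergent pairs with a gap of at most 500 bp, a limit chosen after the gaps of these members were known, held 1842 genes (9.22% of all), and 9.66% of those had an IDR-thresholded promoter summit and 42.1% a pooled one. Of all IDR-thresholded promoter summits, 162 of 467 (34.7%) lay upstream of genes on both strands, compared with 701 of 4374 (16.0%) in the pooled list. These shares had no limit on the gap beyond the 1000 bp of each window, so they cover wider pairs too.

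**Figure D3:**
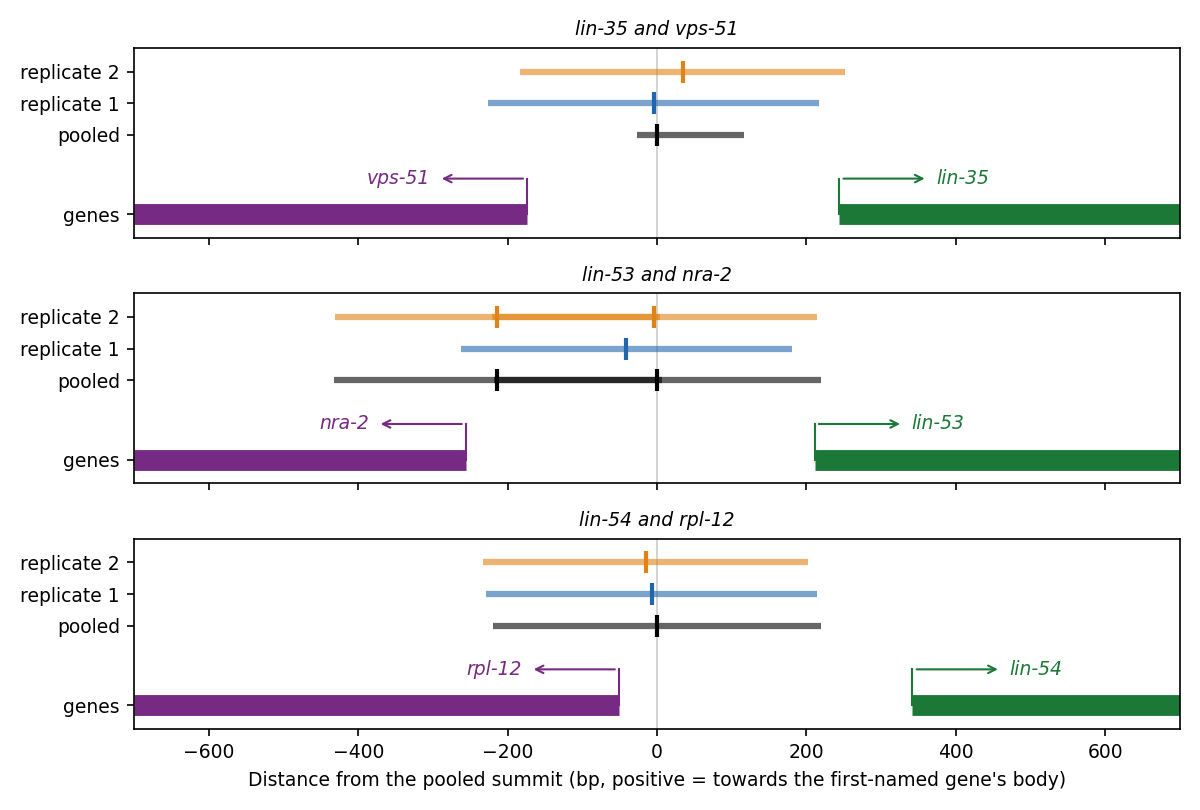
Peaks in the gaps between lin-35 and vps-51, lin-53 and nra-2, and lin-54 and rpl-12, as distance in bp from the strongest pooled summit. Bars are peak extents and ticks are summits in the pooled, replicate 1 and replicate 2 lists, and arrows mark the annotated 5' ends and direction of each gene; the summit at lin-54 lies 51 bp from rpl-12 and 342 bp from lin-54.

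The sequences printed above shared the 9 bases GCGCTCCAC. Taken on the strand of the member, the match began 12 bp downstream of the summit at lin-54, 17 bp downstream at efl-1 and 19 bp upstream at lin-9. At lin-54 it read GTGGAGCGC, which is GCGCTCCAC on the strand of rpl-12, the gene with the nearer 5' end. These letters were chosen after the sequences had been seen, so their presence here is a description. They occurred on either strand in 3 of the 8 windows of 101 bases at the pooled promoter summits of the members, in 45 of 14968 such windows of the pooled list (0.301%) and in 8 of 822 of the IDR-thresholded list (0.973%). Of the promoter windows of all protein-coding genes, 1.20% held them. At lin-9 the match lay at the weaker summit, 169 bp upstream, which had no summit of replicate 2 within 200 bp. The windows at the strongest summits of lin-9, lin-35, lin-53 and lin-52 held no match.

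Letters known from E2F and DREAM sites were searched on both strands as TTCCCGC (the E2F core, with GCGGGAA as its reverse complement), and TTTGAA and TTCGAA (like the cell cycle genes homology region, or CHR, that LIN-54 binds). The E2F core lay within the summit window of efl-1, starting 228 bp upstream of its 5' end, where 2.00% of pooled and 2.68% of IDR-thresholded windows held it. In the stretch covering 250 bp before the 5' end and 50 bp after it, the core was present in 2 members, efl-1 and lin-53 (143 bp upstream), and in 3.22% of all genes. TTTGAA lay in the summit windows of lin-53, lin-54 and lin-9 (the nearer summit), beside 21.8% of pooled windows, and in 6 of 9 promoters, beside 62.6% of all. TTCGAA was found in the promoter of lin-37 alone among the 9, beside 18.2% of all promoters.

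Base composition differed among the member summits. The window at lin-35 had a GC content of 30.7%, and 22 of the 822 IDR-thresholded windows, whose mean was 48.8% ± 8.07 (SD over peaks), had less. The window at the strongest summit of lin-53 had 55.4%, higher than 79.1% of the IDR-thresholded windows. That at the weaker summit in the lin-53 window, 425 bp upstream of lin-53 and 42 bp upstream of nra-2, had 30.7%. Among the members without an IDR-thresholded peak the values were 56.4% and 27.7% at the nearer and farther summit of lin-9, 46.5% at efl-1, 37.6% at lin-54 and 29.7% at lin-52, where the pooled windows had 40.6% ± 9.46 (SD over peaks). The strongest of the member peaks was thus at one of the AT-rich sites of the list.

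Related cell cycle and chromatin genes gave the setting for these counts. Of 20 genes of the NuRD complex and the other synMuv groups 1 had an IDR-thresholded promoter summit, of 16 regulators of the G1 to S transition 0, of 31 DNA replication genes 2 and of 33 mitosis genes 3, beside 3.29% of all genes. A pooled promoter summit was listed for 12, 12, 20 and 22 of them, which is 60%, 75%, 64.5% and 66.7%, beside 23.5% of all genes and 66.7% of the members. The share of members with any pooled promoter summit was therefore within the range of these lists. With summits of both replicates within 200 bp the shares were 45%, 37.5%, 41.9% and 48.5%, beside 66.7% of the members and 12.8% of all genes. The difference between the members and these lists was not tested.

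The gene names with IDR-thresholded promoter summits were few. In the first list it was mep-1, which encodes a zinc-finger partner of the NuRD-type factor LET-418 (signal 78.1, rank 808, 266 bp upstream). In the replication list they were rfc-4, a clamp loader gene (signal 80.6, rank 760, 145 bp upstream, near the miRNA gene mir-5549), and rpa-2, which encodes a subunit of the single-strand binding protein (signal 79.997, rank 770, 601 bp upstream). In the mitosis list they were klp-18, a kinesin gene (117, rank 335), knl-3, a kinetochore gene (97.2, rank 518), and spd-1, which encodes a protein of the spindle midzone (91.95, rank 589). The summits assigned to klp-18 and spd-1 lay nearer to the 5' ends of cogc-2 and Y34D9A.3. With the 822 strongest peaks of replicate 2 alone in place of the list, rfc-4 and spd-1 had no promoter summit, and with those of replicate 1 alone rpa-2 had none. In these lists 1 of the G1 to S regulators had a promoter summit, cdc-14 in replicate 2 and cdc-25.1 in replicate 1. With a window of 500 bp upstream klp-18, rpa-2 and spd-1 had none, so mep-1 and knl-3 were the genes with a promoter summit in every one of these settings. The named mep-1 summit ranked 540 in replicate 1 but 2275 in replicate 2. It was thus outside the 822 strongest peaks of replicate 2, where a different summit in the mep-1 window was counted. The named knl-3 summit ranked 480 and 773. In the pooled list all 6 genes ranked below lin-35, and klp-18 alone ranked above lin-53. Among the G1 to S regulators the strongest pooled promoter summits were at cdc-14, a phosphatase gene (73.1, rank 940), and fzr-1, which encodes an activator of the anaphase-promoting complex (62.9, rank 1332).

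IDR-thresholded summits in gene bodies, outside the promoter window, were found at cye-1, the cyclin E gene, and at the mitosis genes klp-7, mdf-2, mix-1 and spd-5, named here after their values were seen. Those of cye-1 (signal 237, rank 54) and mdf-2 lay within 200 bp of a tRNA gene and that of mix-1 (221, rank 73) within 200 bp of a snoRNA gene, whereas klp-7 (126) and spd-5 (171) had no small non-coding gene near. No member had an IDR-thresholded summit in its body. Among all protein-coding genes 3.29% had one in the promoter window and 4.32% in the window or body. Few genes of any kind were thus added by the body, and its lack at the members sets them apart from few genes. Per kb of promoter window and body, the 9 members held 0.282 pooled summits and all protein-coding genes 0.161.

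**Figure D4:**
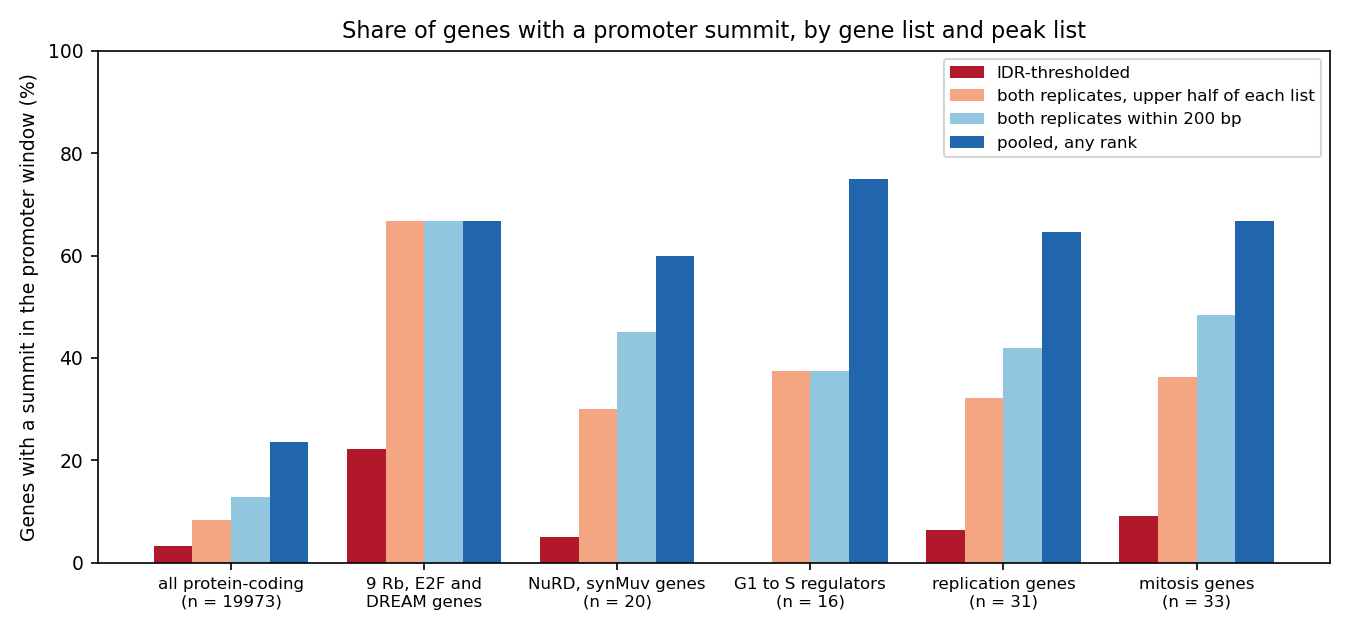
Share of genes with a summit in the promoter window, in percent, for all 19973 protein-coding genes, the 9 members and 4 lists of related genes. Bars show the IDR-thresholded list, summits of both replicates within 200 bp above the median signal of each list, the same over the whole lists, and the pooled list; the pooled bars of the 9 members (66.7%) and the related lists (60% to 75%) are alike in height, above 23.5% for all genes.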

How the data were processed

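The authors' deposited peak lists in narrowPeak format were used: relaxed lists for each replicate and for the pool, called against 1 control, and the IDR-thresholded list, per the deposited notes. A peak's signal was computed by the authors' caller and used as deposited. The sources used here do not give the aligner, caller or IDR threshold. Lists on ce10 were not used, since the annotation is on ce11 (WBcel235). Genes came from Ensembl release 115 and sequence from RefSeq. Positions are 1-based. A gene had a peak when the summit fell in its promoter window or body. Replicate summits within 200 bp were matched. Python 3.11.15 with numpy 2.4.6, pandas 2.3.3 and matplotlib 3.10.9 were used, and the assignment was checked on simulated summits.

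The members, lists and rules were chosen with earlier results of these data known. Named genes were the 9 members, up to 4 listed genes with the strongest IDR-thresholded promoter summit of each related list (otherwise up to 2 with a pooled one), genes sharing a member's summit, and the 3 genes just above and below each member with an IDR-thresholded promoter summit. Counts were set beside all protein-coding genes with no test. The alternatives varied window, 5' ends, overlap, assignment, list part, matching distance and replicate.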

Additional observations from a re-analysis of the deposited data

How the results depend on the processing

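The count of members with an IDR-thresholded promoter summit was 2, and 1 among the peaks above the list's median signal (lin-35) or by the nearest 5' end (lin-53); with the gene body it was also 1 above the median signal. When the 822 strongest peaks of 1 replicate replaced the list, the count ran from 2 to 3, in the window and with the body, with lin-54 added without replicate 1. Members with a pooled summit in window or body ran from 7 to 8 with 1 replicate's relaxed list, and those with matched replicate summits numbered 5 within 100 bp, without efl-1. Of the 100 related genes 6 had an IDR-thresholded promoter summit, 3 with a window of 500 bp upstream (knl-3, mep-1 and rfc-4), and 9 without either replicate, of which 4 of the 6 remained without replicate 1 and 5 without replicate 2. The position of the lin-35 summit was 209 bp upstream without replicate 1 and 248 bp without replicate 2. The remaining alternatives kept their counts within 1.5 times. The cause of these shifts was not tested. No paired analysis was possible because there was 1 group. The lists hold no reads, so depth sets an unknown limit on what was listed.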
